A study of Mus musculus with 6 samples.

Results

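Endothelial cells (EC) can receive signals of lymphoid tissue formation through receptors of the tumor necrosis factor (TNF) superfamily. The 10 genes described here, the lymphotoxin and TNF receptors with their closest partners, were found by gene name among the 55401 genes of the deposited count table. They are 6 receptors (Ltbr, Tnfrsf1a, Tnfrsf1b, Cd40, Tnfrsf11a and Tnfrsf21), the soluble decoy receptor Tnfrsf11b, the ligand Tnfsf10, the adaptor Traf3 and the kinase Map3k14. The 3 mice of the group labelled RbpjDEC (RbpjΔEC below) had the genotype Cre +/-; Rbpjf/f and the 3 Cre-negative littermates (CTRL) had Cre -/-; Rbpjf/f. Both groups carried floxed Rbpj, received 5 doses of 1.5 mg tamoxifen at 8 weeks of age and were harvested 12 weeks after induction. The labels give an age of 21 weeks, which is later than these times add up to. In RbpjΔEC the tamoxifen-dependent Cre is driven by the promoter of Cdh5, which is active in blood and lymphatic EC, and its target Rbpj encodes the transcription factor of canonical Notch signaling. CD31+CD45- cells of male mice were sorted from the kidney, and 1 RNA library was made per mouse.

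Lymphotoxin and TNF are made mainly by lymphocytes and other immune cells, while their receptors sit on the stromal and endothelial cells that respond. Binding of TNF to its receptors activates the canonical NF-kB pathway. Lymphotoxin receptor, CD40 and RANK also release the kinase NIK from TRAF3, which otherwise marks it for degradation, and NIK then drives the noncanonical pathway through Nfkb2 and Relb. This pathway is required for lymph node development and for the maintenance of high endothelial venules. Much of it is set at the level of protein, which RNA counts do not measure.

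Total counts were between 39649171 and 47726850 per library. Levels are given in CPM, counts scaled to the library size with TMM, edgeR's correction for library composition. The floor was set at 3 counts, which came to 0.0633 to 0.0748 CPM. Groups were compared by edgeR (quasi-likelihood, 3 libraries against 3) over the 18438 genes that passed the low-count filter, with Benjamini-Hochberg adjusted p-values and a threshold of 0.05. All 10 genes passed the filter, with between 121 and 32461 counts per library. In CTRL, Rbpj stood at 29.2 ± 0.963 CPM (SD, n = 3), and in RbpjΔEC at 28.2 ± 1.86 CPM (SD, n = 3). Those counts cover the whole gene and not the floxed part alone, so they do not check the deletion. Hey1, a direct target of Notch signaling, was at 16.7, 19.9 and 22.6 CPM in CTRL 1 to 3 against 11.5, 8.91 and 14.6 CPM in RbpjΔEC 1 to 3. The groups did not overlap, with RbpjΔEC lower (log2 fold change -0.76, edgeR quasi-likelihood adjusted p = 0.0722), though the gene did not pass the threshold. The 10 pan-endothelial markers, all detected, summed to between 25338 and 28065 CPM in CTRL and between 22796 and 23081 CPM in RbpjΔEC. These sums did not overlap, with RbpjΔEC lower. The median log2 fold change of the 10 was -0.22, and 0 of them passed.

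None of the 10 genes differed between the groups at the threshold. This was 0 of 10, where 1.13% of all tested genes passed (0.575% higher and 0.559% lower in RbpjΔEC). At an unadjusted p under 0.05 there were again 0 of 10, where 17.5% of all tested genes passed (8.88% higher and 8.62% lower). With DESeq2's Wald test 0 of 10 passed after adjustment, where 584 of 38324 genes did. In that test 1 of 10, Tnfrsf11b, had an unadjusted p under 0.05, where 3265 of 38324 genes did. In all 10 the CPM of the groups overlapped, whereas the groups did not overlap in 23% of tested genes (11.4% higher and 11.6% lower). By edgeR their adjusted p lay between 0.345 and 0.919. Their median log2 fold change, RbpjΔEC over CTRL, was 0.05, with 6 above and 4 below 0, against a median of 0.01 over all tested genes. The median of the 10 was -0.04 without CTRL 3 and -0.03 without RbpjΔEC 2, so its sign depends on single libraries. For 8 of the 10 the 95% interval of the fold change lay within 1.5-fold in either direction, and Tnfrsf21 and Tnfrsf11b had wider intervals. In these bulk samples fewer cells that express a gene cannot be told apart from less RNA per cell.

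**Figure D1:**
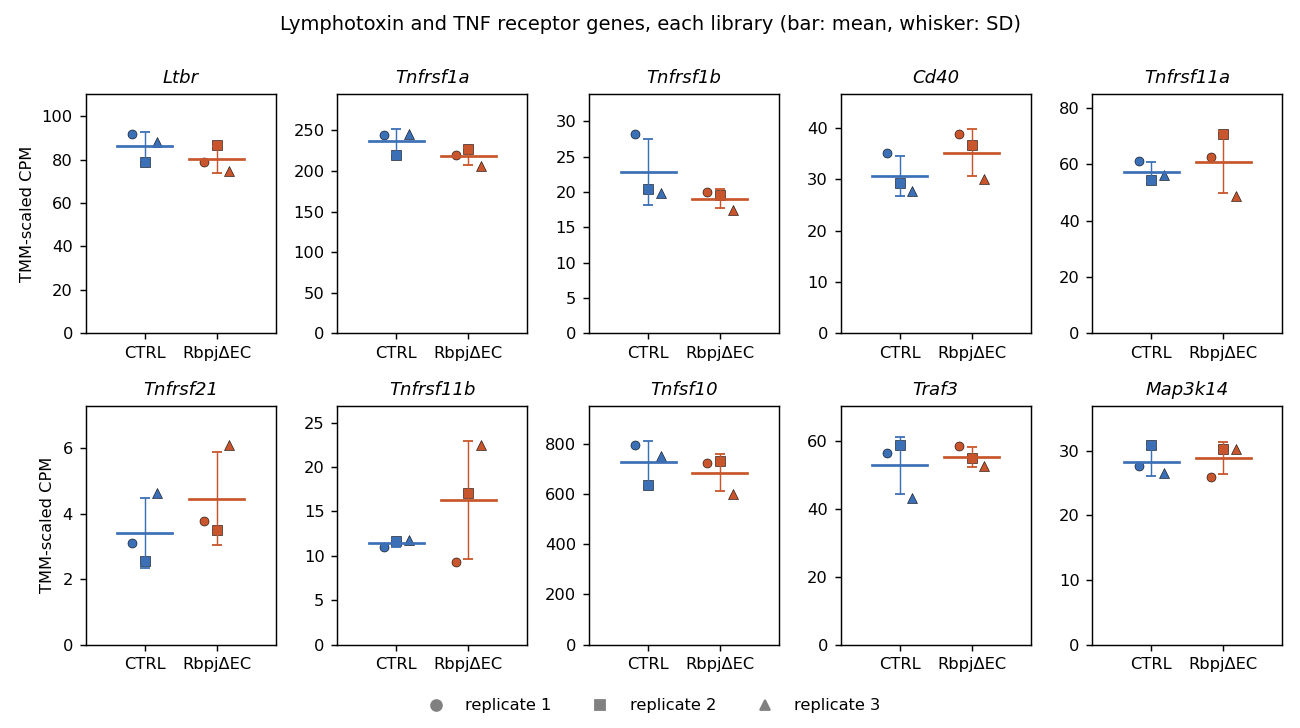
TMM-scaled CPM of the 10 genes (y axes from 0, each gene with its own scale) in the 3 CTRL and the 3 RbpjΔEC libraries, with the mean as a bar and the SD as a whisker. The groups overlap in every panel, and Tnfrsf11b spreads from 9.27 to 22.4 CPM within RbpjΔEC.

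Ltbr (ENSMUSG00000030339.7), the lymphotoxin-beta receptor, is needed for lymph node formation and lies on chromosome 6 of GRCm38 (minus strand, 125306571 to 125313885). It had 91.7, 79.0 and 88.0 CPM in CTRL 1 to 3 and 79.0, 86.6 and 74.6 CPM in RbpjΔEC 1 to 3. The lowest CTRL library was below 2 of the RbpjΔEC libraries, so the groups overlapped. The log2 fold change was -0.11 (standard error 0.0819, 95% interval -0.29 to 0.07, edgeR quasi-likelihood adjusted p = 0.532). As a fold change this interval ran from 0.820 to 1.05.

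Tnfrsf1a (ENSMUSG00000030341.17) encodes TNF receptor 1, the broadly expressed TNF receptor with a death domain, on the plus strand of the same chromosome (125349362 to 125362484). It had 244.7, 219.8 and 245.5 CPM in CTRL 1 to 3 and 220.2, 227.2 and 206.7 CPM in RbpjΔEC 1 to 3. Its highest value over the 6 libraries was 1.19 times its lowest, the narrowest spread of the 10 genes together with Map3k14. The groups overlapped, with a log2 fold change of -0.12 (standard error 0.0722, 95% interval -0.28 to 0.04, edgeR quasi-likelihood adjusted p = 0.426).

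Tnfrsf1b (ENSMUSG00000028599.10) encodes TNF receptor 2, which lacks a death domain and is found on EC and leukocytes (chromosome 4, minus strand, 145213463 to 145246870). It had 28.2, 20.5 and 19.8 CPM in CTRL 1 to 3 and 20.1, 19.6 and 17.5 CPM in RbpjΔEC 1 to 3. CTRL 1 stood above the other 5 libraries, which lay between 17.5 and 20.5 CPM. Its log2 fold change of -0.26 (standard error 0.135, 95% interval -0.56 to 0.03) had the smallest edgeR quasi-likelihood adjusted p of the members, 0.345. Without CTRL 1 it was -0.09. The 6 leukocyte markers summed to 16.5 CPM in CTRL 1, to 4.96 and 8.66 CPM in CTRL 2 and 3 and to between 3.25 and 5.16 CPM in RbpjΔEC, and their part in the level of Tnfrsf1b was not tested. Per kilobase of exon, Tnfrsf1a was 12.8, 15.8 and 18.2 times as abundant as Tnfrsf1b in CTRL 1 to 3, and 16.2, 17.1 and 17.4 times in RbpjΔEC 1 to 3. Most of the RNA of the TNF receptor pair therefore came from the one with the death domain in every library.

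Cd40 (ENSMUSG00000017652.16), the costimulatory receptor of B cells that EC also carry, lies on chromosome 2 (plus strand, 165055627 to 165072948). It had 35.1, 29.2 and 27.8 CPM in CTRL 1 to 3 and 38.8, 36.6 and 30.1 CPM in RbpjΔEC 1 to 3. RbpjΔEC 1 and 2 were above all CTRL libraries, and RbpjΔEC 3 lay between CTRL 1 and CTRL 2. Its log2 fold change was 0.20 (standard error 0.117, 95% interval -0.06 to 0.45, edgeR quasi-likelihood adjusted p = 0.408).

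Tnfrsf11a (ENSMUSG00000026321.7) encodes RANK, the receptor of RANKL, which acts in bone resorption and lymph node development (chromosome 1, plus strand, 105780718 to 105847981). It had 61.2, 54.6 and 56.3 CPM in CTRL 1 to 3 and 62.7, 70.7 and 48.7 CPM in RbpjΔEC 1 to 3. The RbpjΔEC libraries held both the highest and the lowest value of the 6. This gave a log2 fold change of 0.08 (standard error 0.121, 95% interval -0.19 to 0.35, edgeR quasi-likelihood adjusted p = 0.766).

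Tnfrsf21 (ENSMUSG00000023915.5) encodes death receptor 6 and was the least abundant member (chromosome 17, plus strand, 43016555 to 43089189). It had 3.09, 2.55 and 4.61 CPM in CTRL 1 to 3 and 3.77, 3.50 and 6.08 CPM in RbpjΔEC 1 to 3, from 121 to 244 counts. RbpjΔEC 3 was the highest library and CTRL 3 the next. A log2 fold change of 0.38 (standard error 0.280, edgeR quasi-likelihood adjusted p = 0.515) had an interval of the fold change from 0.850 to 1.99. The log2 value was 0.09 without RbpjΔEC 3 and 0.65 without CTRL 3.

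Tnfrsf11b (ENSMUSG00000063727.3) encodes osteoprotegerin, a secreted decoy that binds RANKL and TRAIL and so keeps them from their receptors (chromosome 15, minus strand, 54250619 to 54278484). It had 10.96, 11.6 and 11.8 CPM in CTRL 1 to 3 and 9.27, 17.1 and 22.4 CPM in RbpjΔEC 1 to 3. The CTRL libraries lay close together, with a coefficient of variation of 3.90%, against 40.7% in RbpjΔEC, where RbpjΔEC 1 was below every CTRL library and the other two were above them. Its log2 fold change was 0.50 (standard error 0.299, 95% interval of the fold change 0.860 to 2.33, edgeR quasi-likelihood adjusted p = 0.443). It was 0.20 without RbpjΔEC 3 and 0.78 without RbpjΔEC 1. RbpjΔEC 3, highest for both Tnfrsf11b and Tnfrsf21, also had the highest counts of the proximal tubule genes Lrp2 and Slc34a1, with 5178 counts of Lrp2 against 549 to 1705 in the other libraries. In CPM, Kap, Cubn and Ttc36 were also highest in RbpjΔEC 3. Umod, Slc12a1, Aqp1, Aqp2 and Atp6v1g3 were lower there than in every CTRL library, and Slc12a3 was not. Umod had 1599 counts in RbpjΔEC 3, against 1912 and 767 in RbpjΔEC 1 and 2 and 2651 to 4258 in CTRL. The 11 tubule markers together summed to 607 CPM in RbpjΔEC 3, to 298 and 311 CPM in RbpjΔEC 1 and 2, and to between 536 and 648 CPM in CTRL. Of these, Aqp1 is also known from EC. All 11 reached the floor in at least 1 library. The part of tubule RNA in the levels of Tnfrsf11b and Tnfrsf21 was not tested.

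Tnfsf10 (ENSMUSG00000039304.11), the only ligand among the members, encodes TRAIL, which signals cell death or survival through its own receptors (chromosome 3, plus strand, 27317028 to 27342427). It had 792.9, 634.7 and 751.3 CPM in CTRL 1 to 3 and 723.4, 730.7 and 599.2 CPM in RbpjΔEC 1 to 3. RbpjΔEC 3 was the lowest and CTRL 1 the highest, with the others in between in no order by group. The difference on the log2 scale was -0.09 (standard error 0.102, 95% interval -0.31 to 0.14, edgeR quasi-likelihood adjusted p = 0.706).

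Traf3 (ENSMUSG00000021277.16), the adaptor that holds NIK at a low level in resting cells, lies on chromosome 12 (plus strand, 111166370 to 111267153). It had 56.5, 58.6 and 43.1 CPM in CTRL 1 to 3 and 58.4, 54.8 and 52.5 CPM in RbpjΔEC 1 to 3. All RbpjΔEC libraries lay inside the range of the CTRL libraries. Its log2 fold change was 0.07 (standard error 0.110, 95% interval -0.17 to 0.31, edgeR quasi-likelihood adjusted p = 0.790). An antisense gene, 4930595D18Rik, overlaps the locus but shares 0 exonic bases with it.

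Promoter sequence was searched because RBPJ binds DNA and because several of these genes are known to respond to NF-kB. RefSeq promoters (GRCm38.p6) were at hand for 8 of the 10 members, all but Cd40 and Tnfrsf11b. In the 250 bases before the start, 0 of 8 held the RBPJ motif GTGGGAA on either strand, where 5.42% of all 32851 promoter windows did. The NF-kB consensus, on either strand, was found in 1 of 8, where 7.25% of all windows held it. That match is the last 10 bases before the start of Traf3 (plus strand), shown in capitals within chr12:111166351-111166369.
Traf3: gcggcccgcGGGGATTTCC
A match in these letters is a description of the window and says nothing of binding in these cells.

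Map3k14 (ENSMUSG00000020941.7), which encodes NIK itself, had 27.6, 30.8 and 26.6 CPM in CTRL 1 to 3 and 25.9, 30.3 and 30.3 CPM in RbpjΔEC 1 to 3 (chromosome 11, minus strand, 103219762 to 103267472). Its log2 fold change of 0.03 was the smallest in size among the members (standard error 0.0975, 95% interval -0.19 to 0.24, edgeR quasi-likelihood adjusted p = 0.919). A noncoding gene on the same strand, 1700028N14Rik, shares 135 exonic bases with Map3k14, and reads there cannot be told apart. Map3k14 in RbpjΔEC 1 was the lowest of the 6 libraries and in CTRL 2 the highest, so the groups overlapped.

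**Figure D2:**
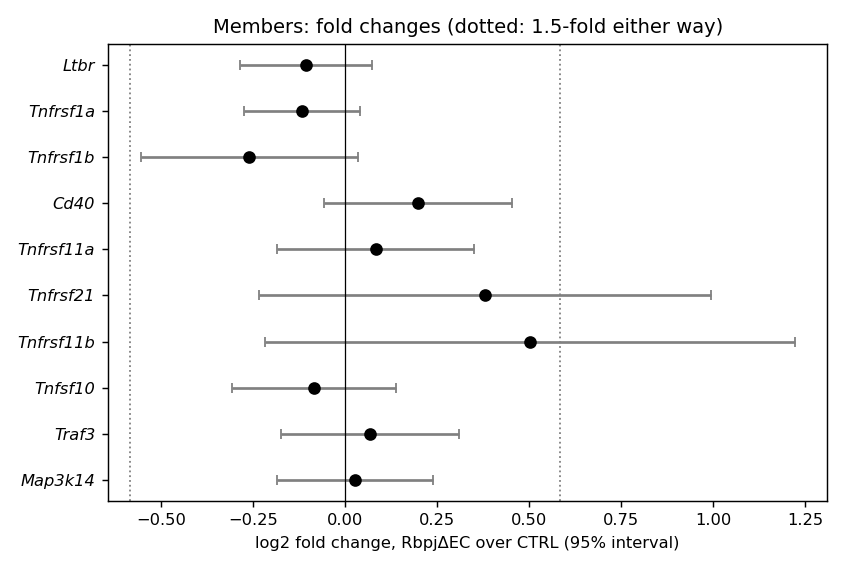
Log2 fold change of each member, RbpjΔEC over CTRL (x axis), as a point with its 95% interval, with dotted lines at 1.5-fold either way. All 10 intervals hold 0, and those of Tnfrsf21 and Tnfrsf11b alone reach past 1.5-fold.

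Levels were compared between genes as CPM per kilobase of exon. Over the 6 libraries Tnfsf10 was the most abundant member with a mean of 133.9 CPM per kilobase, followed by Tnfrsf1a with 87.7 and Ltbr with 35.3. These 3 did not overlap with each other in any library. A middle group followed, in which Tnfrsf11a (9.86 CPM per kilobase) and Cd40 (9.67) could not be ordered, each being higher in 3 of the 6 libraries. Cd40 was above Traf3 (7.35) in every library. The ranges of Traf3, Tnfrsf1b (5.49), Tnfrsf11b (4.92) and Map3k14 (4.36) overlapped from each to the next, although Traf3 was above Tnfrsf1b within each of the 6 libraries. Tnfrsf21 was last, at 0.958 CPM per kilobase, and did not overlap with Map3k14. By this measure Tnfsf10 was above 99.2%, Tnfrsf1a above 98.5% and Ltbr above 94.8% of the tested genes with a known exon length.

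**Figure D3:**
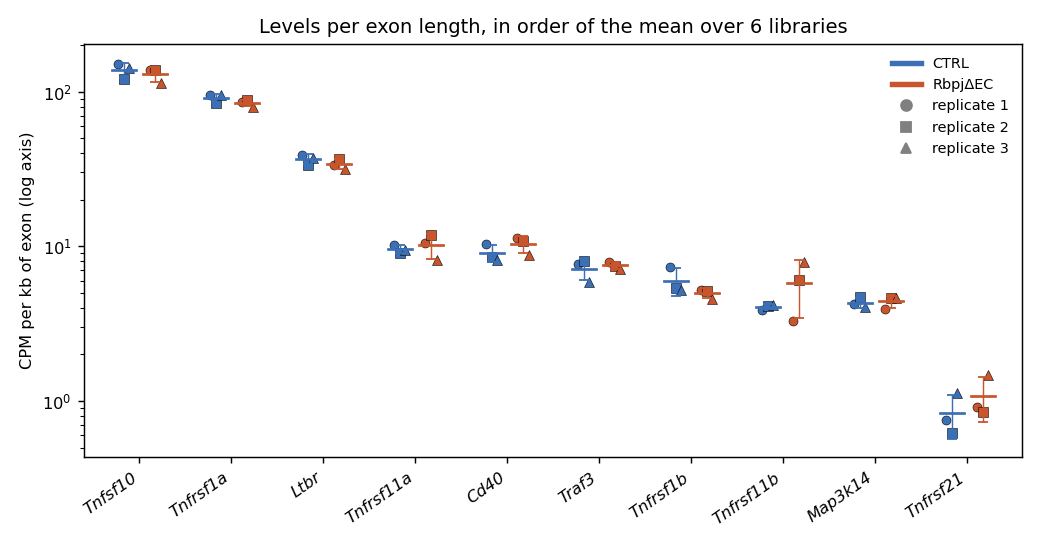
CPM per kilobase of exon (log axis) for the 10 genes in order of their mean over the 6 libraries, with CTRL and RbpjΔEC side by side, the mean as a bar and the SD as a whisker. Tnfsf10, Tnfrsf1a and Ltbr stand apart at the top and Tnfrsf21 at the bottom in both groups.

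RNA of the lymphotoxins, RANKL, CD40 ligand and LIGHT was counted at most 13 times in any library of the sorted cells. Lta had at most 8 and Ltb at most 13 counts in any library, Tnfsf11 (RANKL) had 3 counts in CTRL 1 and 0 in the other libraries, Cd40lg had 2 counts in CTRL 1 and 0 in the others, and Tnfsf14 (LIGHT) had at most 3. Tnfsf8, Tnfsf15, Tnfsf18 and Fasl, which act on receptors outside the 10 genes, had between 0 and 13. Tnfsf4 and Cd70 had 0 counts in all 6 libraries, which allows a level of up to 0.0748 CPM. Of 17 ligand genes other than Tnfsf10, 11 were below the low-count filter and 6 were tested. For these 11 a difference between the groups was not detectable at this depth. Of the 6 tested ligands, 0 passed in edgeR's quasi-likelihood test and 0 in DESeq2. In edgeR 3 had an unadjusted p under 0.05, 2 of them above and 1 below 0. Of all tested genes 17.5% did (8.88% higher and 8.62% lower). Tnf had 0.947, 0.992 and 1.23 CPM in CTRL 1 to 3 and 1.49, 2.45 and 2.37 CPM in RbpjΔEC 1 to 3, from 38 to 103 counts. The groups did not overlap, but its log2 fold change of 0.99 (standard error 0.305) did not pass, with an edgeR quasi-likelihood adjusted p of 0.127. Tnfsf13 (APRIL, a B cell survival factor) had a log2 fold change of 0.56 and Eda (ectodysplasin) of -0.97, each without passing. The 5 leukocyte markers that could be tested had a median log2 fold change of -1.26, and 0 of them passed. All 6 summed to between 4.96 and 16.5 CPM in CTRL, highest in CTRL 1, and between 3.25 and 5.16 CPM in RbpjΔEC, so the groups overlapped. The part of leukocytes in the levels of these ligands was not tested.

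Among 21 other receptors of the superfamily, 15 were tested and 1 passed, where 1.13% of all tested genes did. The 6 below the filter, Tnfrsf9, Tnfrsf13b, Tnfrsf13c, Tnfrsf17, Ngfr and Edar, had between 0 and 34 counts. The receptor that passed was Tnfrsf12a, which encodes Fn14, the receptor of TWEAK, known for its induction by growth factors and injury (chromosome 17, minus strand, 23675445 to 23677468). Tnfrsf12a had 8.87, 10.7 and 10.1 CPM in CTRL 1 to 3 and 16.2, 13.6 and 15.3 CPM in RbpjΔEC 1 to 3. Every RbpjΔEC library was above every CTRL library. It rose by a log2 fold change of 0.60 (standard error 0.123, fold change 1.52 with a 95% interval from 1.26 to 1.82, edgeR quasi-likelihood adjusted p = 0.0430). The call was close to the threshold. Its adjusted p in the same test was 0.153 without CTRL 1, 0.147 without CTRL 3, and 0.198, 0.0823 and 0.0538 without RbpjΔEC 1, 2 and 3, while it was 0.0305 without CTRL 2. DESeq2's Wald test gave 0.00796 with all libraries. Its ligand gene Tnfsf12 (TWEAK), whose groups overlapped, was measured at 13.1 ± 0.349 CPM (SD, n = 3) in CTRL, with 10.99 ± 2.91 CPM (SD, n = 3) in RbpjΔEC. Tnfsf12 and the neighboring Tnfsf13 lie within an annotated read-through gene, Tnfsfm13, so reads can be split among them. Of the other receptors, Tnfrsf22, a decoy receptor of TRAIL, had a log2 fold change of -0.30 (adjusted p = 0.0819) and Tnfrsf10b, the death receptor of TRAIL in the mouse, of 0.30 (adjusted p = 0.102), both by edgeR. The groups did not overlap in either gene, and neither passed. At an unadjusted p under 0.05, 2 of the 15 receptors were above and 3 below 0, where 17.5% of all tested genes passed. The median log2 fold change of the 15 was 0.18, against 0.01 over all tested genes. Without 1 library in turn this median ran from 0.14 (without RbpjΔEC 3) to 0.45 (without CTRL 2). It was 0.09 for the 21 receptors in DESeq2.

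All 25 adaptors and signaling enzymes downstream of these receptors were tested and 0 passed in edgeR. At an unadjusted p under 0.05 there were 2 of 25, both above 0, where 17.5% of all tested genes passed. In DESeq2 1 of 25 passed after adjustment, where 584 of 38324 genes did. Their median log2 fold change was 0.08, and the values ran from -0.16 to 0.39. The highest belonged to Rnf31 (HOIP, the catalytic part of the linear ubiquitin ligase), with 89.9, 119.3 and 100.4 CPM in CTRL 1 to 3 and 139.2, 132.3 and 133.4 CPM in RbpjΔEC 1 to 3, groups that did not overlap. Its adjusted p was 0.0754 by edgeR's quasi-likelihood method, between 0.0108 and 0.259 without 1 library in turn (lowest without CTRL 2), and 0.0245 by DESeq2's Wald test. Map3k7, the kinase TAK1, had a log2 fold change of 0.18, and Birc2, which encodes an inhibitor of apoptosis that acts with TRAF3 on NIK, of 0.15.

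Of 9 NF-kB subunits and inhibitors, all tested, 0 passed in edgeR and 1 in DESeq2, where 584 of 38324 genes passed. At an unadjusted p under 0.05 in edgeR there were 3, all above 0. Of all tested genes 8.88% were higher and 8.62% lower at that p. The median log2 fold change was 0.26, with 8 above and 1 below 0. Nfkb2, the subunit precursor of the noncanonical pathway, had 86.6, 82.4 and 63.4 CPM in CTRL 1 to 3 and 117.1, 126.0 and 90.0 CPM in RbpjΔEC 1 to 3. The groups did not overlap. Its log2 fold change was 0.52 (standard error 0.154), with an adjusted p of 0.148 by edgeR's quasi-likelihood method and 0.0131 by DESeq2's Wald test. Without 1 library in turn the edgeR value ran from 0.0185, without RbpjΔEC 3, to 0.364, without RbpjΔEC 1. Bcl3, an atypical inhibitor family member that acts in the nucleus, had a log2 fold change of 0.51, and Nfkbie (IkB-epsilon) of 0.35, with edgeR quasi-likelihood adjusted p-values of 0.106 and 0.220. With single libraries left out, Bcl3 had an adjusted p from 0.0485, without RbpjΔEC 3, to 0.352, without RbpjΔEC 1. With no low-count filter 4 genes of the list passed in edgeR's quasi-likelihood test (1.09e-07 for Nfkb2, 0.000869 for Bcl3, 0.00759 for Relb and 0.0275 for Nfkbie). That setting called more genes of all kinds, 1436 of 38324 against 209 of 18438 in the main fit.

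Among 18 genes known as targets of lymphotoxin and TNF signaling, 12 were tested and 0 passed in edgeR. At an unadjusted p under 0.05 there were 5, 2 above and 3 below 0, where 17.5% of all tested genes passed. In DESeq2 3 passed after adjustment, all below 0 (Ccl21a, Cx3cl1 and Cxcl12), where 584 of 38324 genes did. The median log2 fold change was -0.12, and without 1 library in turn it ran from -0.25 (without CTRL 3) to 0.095 (without CTRL 1). The 6 untested genes were Madcam1, Glycam1, Chst4, Ccl19, Ccl20 and Cxcl13, markers of high endothelial venules and lymphoid chemokines, none of which had more than 6 counts in any library. Ccl21a, the T cell zone chemokine, had 2.54, 1.54 and 3.08 CPM in CTRL 1 to 3 and 0.780, 1.17 and 0.623 CPM in RbpjΔEC 1 to 3, a log2 fold change of -1.47 (edgeR quasi-likelihood adjusted p = 0.0703). The groups did not overlap. The mouse genome has near-identical copies of this gene, among which counting can split the reads. Ccl21a is also made by lymphatic EC, whose markers Lyve1 and Mmrn1 had log2 fold changes of -1.19 and -1.16, while Prox1 had 0.17 and Flt4 0.01. The 5 lymphatic markers, Ccl21a included, summed to between 621 and 718 CPM in CTRL and between 645 and 678 CPM in RbpjΔEC. Most of this came from Flt4 (mean 633 CPM in CTRL and 639 CPM in RbpjΔEC), so the sum says little of the others. The groups did not overlap in Lyve1 and Mmrn1, lower in RbpjΔEC, and in Prox1, higher in RbpjΔEC. The part of lymphatic EC in the level of Ccl21a was not tested. Cx3cl1 (fractalkine) had a log2 fold change of -0.31 (adjusted p = 0.0819) and Cxcl10, a chemokine for activated T cells, of 0.59 (adjusted p = 0.103), both by edgeR.

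**Figure D4:**
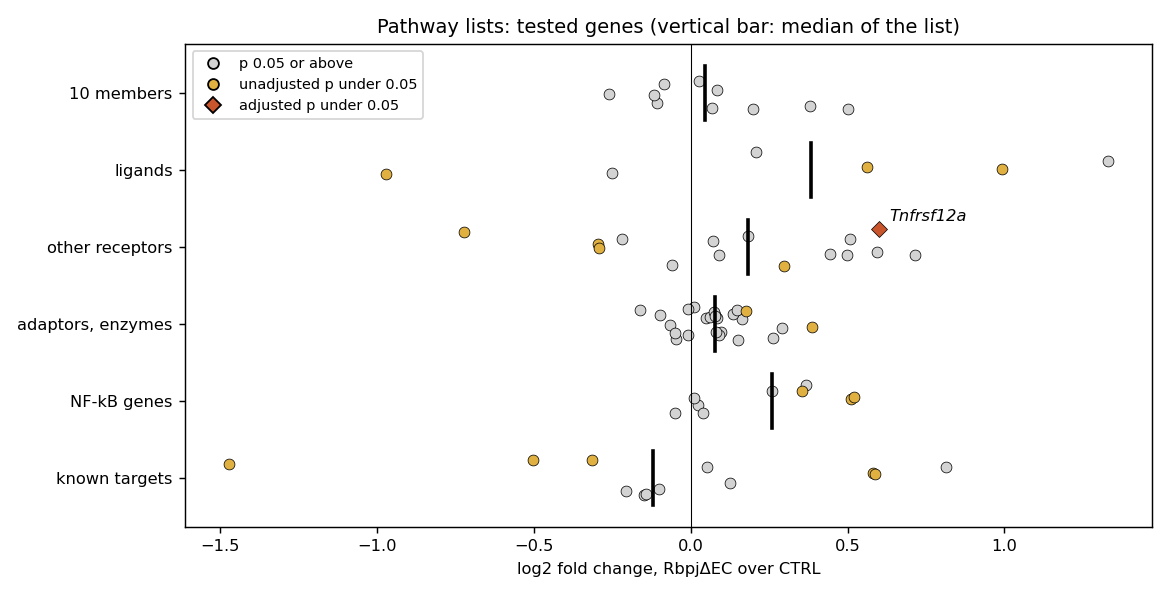
Log2 fold change, RbpjΔEC over CTRL (x axis), of the tested genes of the 10 members and of 5 pathway lists, with the median of each list as a bar. The members lie between -0.26 and 0.50, and Tnfrsf12a, at 0.60, alone passed an adjusted p of 0.05.

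Markers of cells around the vessels were measured beside these genes. Lower in RbpjΔEC at an edgeR adjusted p under 0.05 were 3 of 8 tested mural markers, 1 of 3 fibroblast markers and 1 of 6 macrophage and dendritic cell markers (Mrc1). Of all tested genes 0.559% were. The 9 mural markers summed to between 80.5 and 100.4 CPM in CTRL and between 32.3 and 52.7 CPM in RbpjΔEC, and the 7 fibroblast markers to between 4.71 and 7.18 CPM and between 1.596 and 3.07 CPM. The 10 markers of macrophages and dendritic cells summed to between 14.2 and 26.7 CPM in CTRL and between 11.003 and 14.4 CPM in RbpjΔEC. Of the T cell markers, Cd3d and Cd3e had 0 counts in all libraries. Nearly all of the sum of that list, between 3.49 and 8.72 CPM, came from Lck. The podocyte markers summed to between 3181 and 3561 CPM in CTRL and between 2589 and 2857 CPM in RbpjΔEC, most of it from Podxl, which EC also express. The part of these cells in the levels of the member genes was not tested.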

How the data were processed

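RNA of CD31+CD45- kidney cells from 3 CTRL and 3 RbpjΔEC mice was analyzed. The authors deposited raw counts per gene, without normalization, from stranded total RNA libraries processed with nf-core/rnaseq and GENCODE annotation M25 on GRCm38.p6. The submitters' processing notes name Trim Galore 0.6.4, STAR 2.6.1d, bcl2fastq and featureCounts of Subread 1.6.4. The strand setting of the counting was not given in the sources used here. The groups came from the sample titles, and each mouse gave 1 library. No libraries of a group were identical.

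Counts were tested in R 4.3.3 with edgeR 4.0.16 (filterByExpr, TMM, robust glmQLFit and glmQLFTest) on 18438 genes, and p-values were adjusted with the Benjamini-Hochberg method. The standard error was |log2 fold change| over the root of the F statistic, and 95% intervals used its residual degrees of freedom. DESeq2 1.42.0, run with outlier and independent filtering off as in the study's methods and with the genotype as the only term, was an alternative, as were other normalizations and filters, a replicate block and each library left out. The fit was tested on simulated data. The total counts set the depth, and floors cover counting error only. Exon lengths and coordinates came from GENCODE M21 (GRCm38), which holds 55141 of the 55401 listed genes. This release differs from the counting release, so positions can differ. Pathway genes were named by rule: those past the threshold or, where fewer than 3 passed in a list, the 3 with the smallest p, and those below the filter. Hey1, Tnfsf12, Cxcl12, Relb and the markers named singly were chosen after their values were seen. The members and lists were chosen with earlier results of these data known. The result of 1 marker list is not reported here.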

Additional observations from a re-analysis of the deposited data

How the results depend on the processing

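The 10 member genes gave 120 results under the alternatives, of which 114 kept their direction and 1 passed the threshold. With no low-count filter 1 member, Tnfrsf11b, passed (log2 fold change 0.51, edgeR adjusted p = 0.0400). Without 1 library in turn 0 members passed, and the log2 fold change ran from -0.040 to 0.22 for Tnfrsf11a, from -0.18 to 0.0018 for Tnfsf10, from -0.061 to 0.14 for Traf3, from -0.021 to 0.097 for Map3k14 and from -0.089 to 0.0013 for Rbpj, so that the sign of these 5 depends on single libraries. Over all genes 209 of 18438 passed, against 1436 of 38324 with no low-count filter and 584 of 38324 with DESeq2's Wald test. Without 1 library the count ran from 21 (without RbpjΔEC 1) to 700 (without CTRL 2). With no low-count filter 3 other receptors, 1 adaptor, 4 NF-kB genes and 5 targets passed. With DESeq2 1 other receptor (Tnfrsf12a), 1 adaptor, 1 NF-kB gene and 3 targets passed. Without 1 library these counts ran from 0 to 2 for other receptors, from 0 to 1 for adaptors, from 0 to 2 for NF-kB genes and from 0 to 1 for targets. The cause was not tested. Same-numbered libraries did not deviate together (correlations of 0.0231, 0.00916 and 0.00544), and no library correlated best with its own number. In the fit with the replicate block 344 genes, 0 members, 0 other receptors and 2 NF-kB genes (Nfkb2 and Bcl3, adjusted p = 0.00743 and 0.0370) passed, and Tnfrsf12a had an adjusted p of 0.0587. The median log2 fold change over all genes was 0.01, and -0.10 with DESeq2, which also holds the low-count genes that edgeR's filter removes. It was 0.05 with library size alone, where 0 members passed. Alternatives for single pathway genes were added after the data were seen. Of the 17 ligand genes, 11 had too few counts to be tested in the main fit. With no low-count filter and with DESeq2, 15 were tested and 0 passed.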
